A study of Homo sapiens with 18 samples.

Results

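SR proteins and heterogeneous nuclear ribonucleoproteins (hnRNPs) are the main families of proteins that bind pre-mRNA and set which exons are joined. Their transcripts were followed through experiments on RBM39, itself a splicing factor with an arginine- and serine-rich domain, in the human multiple myeloma cell lines H929 and MM1S. The members were taken by gene symbol: 12 SR genes (SRSF1 to SRSF12), 4 SR-like genes (TRA2A, TRA2B, SRRM1 and SRRM2) and 21 hnRNP genes (PTBP1 and 20 genes whose symbols begin with HNRNP), 37 genes in all. Each of the 37 has a row in the H929 table of 16532 genes and in both MM1S expression tables of 58884 named rows, and 36 have one in the table of 20308 rows from RNA immunoprecipitation, where SRSF8 was not matched. The series holds 18 libraries. In H929, 3 libraries labelled scramble stand against 3 labelled shRBM39, a short hairpin directed at RBM39. In MM1S, 2 scramble libraries stand against 2 shRBM39 libraries, and 3 libraries of cells given the solvent DMSO against 3 of cells given indisulam, an aryl sulfonamide that acts as a molecular glue and has RBM39 ubiquitinated and degraded. A further pair of MM1S libraries comes from RNA immunoprecipitation (RIP), 1 pulled down through RBM39 and 1 with IgG as control. Dose, time and hairpin sequence are not given in the labels, and they leave unsaid whether replicates were grown separately. The p-values therefore reflect the spread among libraries alone, and that spread may be technical.

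SR proteins bind exonic sequences through RNA recognition domains, and their arginine- and serine-rich tails recruit the spliceosome, so that they mostly favour inclusion of the exon they bind. Many hnRNPs bind silencer sequences and oppose inclusion, and they also package, export and stabilise mRNA. Members of both families are known to adjust their own levels, often by splicing an exon with a premature stop codon into their own transcripts, which are then removed by nonsense-mediated decay.

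The promoters of some of the members named below are shown first, because the same genes recur through the comparisons. RefSeq (GRCh38.p14) gave a window of 300 bases, 250 before and 50 after the annotated start, for 34 of the 37 members, and none for SRSF2, TRA2A and HNRNPA1. The lines below hold the 120 bases before the start, 5′ to 3′ on the gene's strand, with each CCAAT or its reverse complement ATTGG in capitals. HNRNPAB (chr5:178204413-178204532, plus strand) and SRSF3 (chr6:36594242-36594361, plus strand) had the lowest fitted log2 differences of their class with indisulam, HNRNPC (chr14:21269443-21269562, minus strand) was lower in both MM1S experiments, HNRNPM (chr19:8444855-8444974, plus strand) fell with indisulam and was among the most enriched members in the RIP, and SRSF5 (chr14:69767022-69767141, plus strand) was high in some indisulam libraries and low in another.
HNRNPAB: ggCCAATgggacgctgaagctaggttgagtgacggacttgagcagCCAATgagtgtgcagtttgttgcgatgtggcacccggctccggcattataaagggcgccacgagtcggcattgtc
SRSF3: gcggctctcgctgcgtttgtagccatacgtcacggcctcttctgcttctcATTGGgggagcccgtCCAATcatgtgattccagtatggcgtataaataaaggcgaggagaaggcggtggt
HNRNPC: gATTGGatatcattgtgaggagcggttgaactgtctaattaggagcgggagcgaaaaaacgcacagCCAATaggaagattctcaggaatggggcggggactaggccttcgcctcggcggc
HNRNPM: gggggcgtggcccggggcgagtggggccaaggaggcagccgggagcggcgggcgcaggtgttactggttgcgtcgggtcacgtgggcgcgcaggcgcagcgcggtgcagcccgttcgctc
SRSF5: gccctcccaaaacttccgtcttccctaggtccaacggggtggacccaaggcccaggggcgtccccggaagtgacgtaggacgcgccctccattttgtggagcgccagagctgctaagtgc

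CCAAT, searched on both strands of the whole window, was found in 14 of 20 hnRNP promoters (70%) and in 3 of 14 SR and SR-like promoters (21.4%), against 35.7% of the 27305 promoters of the same length. GGGCGG, searched the same way, was found in 16 of 20 hnRNP promoters (80%), 7 of 14 SR and SR-like promoters (50%) and 44.6% of all promoters. CCGGAAG was found in 3 of 20, 2 of 14 and 10.7% of all promoters. Matches of different motifs may overlap at their ends. TATAAA was found in 3 of 20, 2 of 14 and 11.95% of all promoters. Split by the indisulam calls, TATAAA was found in 4 of the 13 members with a window that were called lower and in 1 of the other 21. By the same split CCAAT was found in 8 and 9, GGGCGG in 9 and 14, and CCGGAAG in 2 and 3. These splits were not tested. Among the stretches shown, HNRNPAB and SRSF3 hold 2 CCAAT matches each, HNRNPC 2 of the 3 in its window, and HNRNPM and SRSF5 none. HNRNPD, which also fell with indisulam and whose stretch is not shown, has 0 in its window. A match is a description of letters and was not tested as a site.

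RBM39, the targeted gene, was read first in every library. In H929 its value was 4.56, 4.43 and 4.51 FPKM in scramble and 38.3, 38.6 and 35.6 FPKM in the libraries labelled shRBM39, which is against the label; every H929 direction below is therefore given as that of the libraries labelled shRBM39. In the MM1S knockdown it was 176 and 205 TPM in scramble and 64.8 and 52.2 TPM with shRBM39 (log2 difference -1.69, SE 0.161, limma adjusted p = 0.0121). Its call was kept in 1 of the 4 fits that left out a library. With indisulam it was 189, 178 and 196 TPM in DMSO and 227, 217 and 149 TPM in treated libraries, so the groups overlapped and the difference of 0.05 did not pass (limma adjusted p = 0.828). Without indisulam replicate 3, RBM39 was called higher (0.24, limma adjusted p = 0.00899), as it was after quantile normalization of all libraries (0.40, limma adjusted p = 0.0387). An exact two-sided permutation test over libraries gave 0.1 for H929, 0.333 for the MM1S knockdown and 0.9 for indisulam, where 0.1 is the smallest value that 3 against 3 allows and 0.333 the smallest for 2 against 2.

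Indisulam replicate 3 stood apart from the other treated libraries. Its log2 values correlated at 0.956 and 0.961 with replicates 1 and 2, which correlated at 0.982 with each other, and 12550 genes reached 1 TPM in it against 13748 and 13751. Counts of members called with indisulam are therefore given with and without it. All 10 plasma cell markers were present in each library of both lines, with 9 at 1 TPM or more in indisulam replicate 3 and 10 in every other. Their sum was 5028 to 5149 FPKM in H929 scramble and 7980 to 8124 FPKM in the libraries labelled shRBM39, 4663 to 6931 against 7532 to 8769 TPM in the MM1S knockdown, and 7740 to 8081 against 6090.1 to 7335 TPM with indisulam, so the groups did not overlap in any of the 3. Of the 4 T cell markers only CD3E passed 1 in H929 (15.5 to 46.7 FPKM), with CD3D at 0 to 0.0723 FPKM. The summed T cell list was 39.3 to 47.1 FPKM in H929 scramble and 15.9 to 18.8 FPKM in the libraries labelled shRBM39, 5.61 to 5.86 against 1.32 to 1.70 TPM in the MM1S knockdown, and 3.31 to 4.79 against 0.97 to 1.66 TPM with indisulam; CD3D was 0 in every MM1S library. The summed myeloid list was 25.1 to 26.9 against 13.4 to 14.7 FPKM in H929, 15.9 to 21.1 against 5.70 to 9.79 TPM in the MM1S knockdown and 9.50 to 10.6 against 7.22 to 8.30 TPM with indisulam. Of the 4 myeloid markers only CD68 passed 1. It was 13.3 to 26.5 FPKM over all H929 libraries, 5.42 to 20.5 TPM in the MM1S knockdown experiment and 6.90 to 10.5 TPM in the indisulam experiment. CD14, LYZ and CSF1R were at most 0.46 in any library. The part of these markers in the results was not tested. In bulk RNA, fewer cells of a type and less RNA per cell cannot be told apart.

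With indisulam, many hnRNP transcripts were lower. With all libraries and no further scaling, SR and SR-like genes were called lower in a share near that of all genes. Their log2 differences were below 0 in 13 of 15, as were those of 18 of 21 hnRNPs. The difference between the classes was not tested. Of 21 hnRNP genes, 11 fell and none rose, and of 15 SR and SR-like genes with values high enough to test, 4 fell and none rose. A gene was called at a limma adjusted p below 0.05 over all genes tested, on log2(TPM + 1); 21.5% of the 13445 genes tested were called lower and 8.47% higher. The median log2 difference was -0.55 for hnRNPs and -0.29 for SR and SR-like genes, against -0.05 for all genes tested. All 11 hnRNPs that fell had treated values below every DMSO value, as had 13 of the 21 hnRNPs and 6 of the 15 SR and SR-like genes in all, where 32.3% of genes had such groups. No member had all treated values above DMSO apart from SRSF12, which was too low to test, against 14.9% of genes. Leaving out any 1 DMSO library left 2 SR and SR-like genes and 5 hnRNPs called lower. Over all genes, 2885 were called lower with every library and 1497 to 1677 in these fits. The SR and SR-like share depended on the processing. After median scaling 5 of 15 were lower, and 6 of 15 without indisulam replicate 3, against 22% and 27.8% of all genes. After quantile normalization 1 of 15 was lower, against 2785 of 13445 genes.

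**Figure D1:**
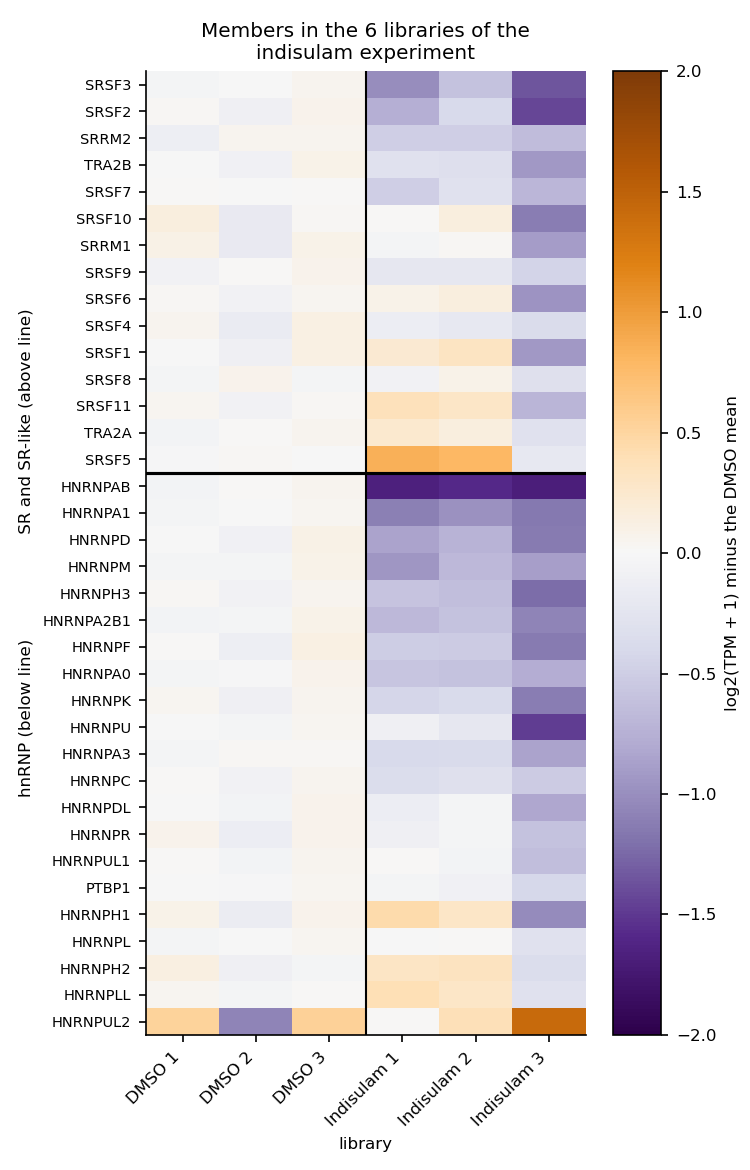
Log2(TPM + 1) of each tested member in the 6 libraries of the indisulam experiment, minus its mean over the 3 DMSO libraries (colour scale, purple lower and orange higher); rows are genes, ordered by their mean difference within each class, and columns are libraries. HNRNPAB is the darkest row in all 3 treated libraries, while SRSF5 is orange in replicates 1 and 2 and pale in replicate 3.

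The strongest fall was that of HNRNPAB, which encodes an RNA-binding protein of the hnRNP A/B group. Its level was 141, 147 and 152 TPM in DMSO and 45.6, 48.2 and 44.9 TPM with indisulam. The treated libraries lay close together and well under all DMSO libraries, and the log2 difference was -1.64 (SE 0.0850, limma adjusted p = 7.98e-05). HNRNPA1, a core hnRNP that antagonises SR proteins at exons and the member with the highest level in MM1S, went from 1174, 1196 and 1240.4 TPM to 560.0, 613 and 541 TPM. Its treated libraries were all far under the lowest DMSO library, and the fitted log2 change was -1.08 (SE 0.0790, limma adjusted p = 0.000202). Reads of HNRNPA1 may be shared with its processed pseudogenes. Rows for 75 of them summed to 2.03% to 2.28% of its own value in DMSO and to 5.16% to 8.12% with indisulam.

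HNRNPM, a splicing regulator known from exon choice in CD44, was 162, 161 and 176 TPM in DMSO and 85.6, 103 and 89.7 TPM with indisulam (log2 difference -0.84, SE 0.0986, limma adjusted p = 0.00122). HNRNPD, also known as AUF1, which binds AU-rich elements and speeds mRNA decay, was 318, 303 and 343 TPM in DMSO and 178, 193 and 146 TPM with indisulam (-0.91, SE 0.118, limma adjusted p = 0.00179). HNRNPA2B1, a close relative of HNRNPA1, was 776, 787 and 857 TPM in DMSO and 504, 533 and 383 TPM with indisulam (-0.78, SE 0.132, limma adjusted p = 0.00512). In none of these 3 genes did a treated library reach a DMSO library. HNRNPA1, HNRNPA2B1, HNRNPAB, HNRNPD and HNRNPM were also called lower in each of the 6 fits that left out a library.

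The other 6 hnRNPs that fell did so with fewer of those fits behind them. HNRNPC, which coats long uridine tracts and keeps them from being used as exons, was 279, 265 and 287 TPM in DMSO and 217, 225 and 193 TPM with indisulam (-0.39, limma adjusted p = 0.0147). HNRNPF, which binds G-rich runs, was 172, 157 and 186 TPM in DMSO and 120.3, 119 and 77.6 TPM with indisulam (-0.72, limma adjusted p = 0.0221). HNRNPH3 was 105, 99.0 and 108 TPM in DMSO and 69.2, 66.8 and 44.1 TPM with indisulam (-0.81, limma adjusted p = 0.0132). The treated groups of these 3 genes lay below the DMSO groups, with replicate 3 the lowest of each. HNRNPK, a poly(C)-binding protein, was 313, 284 and 317 TPM in DMSO and 226, 232 and 140.4 TPM with indisulam (-0.64, limma adjusted p = 0.0422). HNRNPA0 and HNRNPA3 differed by -0.65 and -0.55 on the log2 scale (limma adjusted p = 0.0110 and 0.0213). HNRNPC, HNRNPF, HNRNPH3, HNRNPK, HNRNPA0 and HNRNPA3 were called in 3 of the 6 fits that left out a library.

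Among SR genes, the lowest log2 difference with indisulam was that of SRSF3, the smallest SR protein, which also takes part in mRNA export. SRSF3 was 224, 229 and 240.2 TPM in DMSO and 114, 152 and 89.4 TPM with indisulam, or -0.99 on the log2 scale (SE 0.179, limma adjusted p = 0.00677), with all treated libraries below DMSO. SRSF2, also called SC35, was 302, 276 and 313 TPM in DMSO and 176, 225 and 109 TPM with indisulam (-0.86, SE 0.240, limma adjusted p = 0.0334). SRSF7, a relative of SRSF3 that carries a zinc knuckle, was 131, 129.7 and 132 TPM in DMSO and 92.5, 107 and 80.3 TPM with indisulam (-0.50, SE 0.114, limma adjusted p = 0.0173). For both of these the groups did not overlap either. SRRM2, a large scaffold of nuclear speckles, was 418, 474 and 474 TPM in DMSO and 324, 322 and 288 TPM with indisulam (-0.55, SE 0.0893, limma adjusted p = 0.00444). SRSF3 and SRRM2 were called lower in all 6 fits that left out a library, SRSF7 in 3 and SRSF2 in 2.

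Several SR genes were high in 2 of the treated libraries and low in the remaining one. SRSF5, an SR protein close in sequence to SRSF4 and SRSF6, was 187, 193 and 188 TPM in DMSO and 344, 327 and 165 TPM with indisulam. Replicates 1 and 2 lay above all DMSO libraries and replicate 3 below them, and the difference of 0.48 did not pass (limma adjusted p = 0.204). SRSF1, the founding SR protein, was 108, 101 and 118 TPM in DMSO and 128, 137 and 56.9 TPM with indisulam. HNRNPH1 had the same arrangement among hnRNPs, at 302, 255 and 298 TPM in DMSO and 388, 346 and 139.9 TPM with indisulam. Neither SRSF1 nor HNRNPH1 passed (limma adjusted p = 0.796 and 0.862).

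Without indisulam replicate 3, members were called in both directions. SRSF1 (0.28), SRSF5 (0.82), SRSF11 (0.33) and TRA2A (0.19) were then higher on the log2 scale, and 6 SR and SR-like genes were lower. HNRNPH1 (0.37), HNRNPH2 (0.32) and HNRNPLL (0.34) were then higher and 12 hnRNPs lower. The background moved as well: without this library 37.9% of 14238 genes were called higher and 27.8% lower, and the median of all genes was 0.10. All 15 members called lower with all libraries were also called lower here, together with SRSF9, TRA2B and HNRNPU. Of the 3 lists of related genes described further on, 8, 19 and 8 genes were then higher and 2, 9 and 4 lower. Medians were -0.32 for hnRNPs and -0.01 for SR and SR-like genes. With all libraries and each scaled to an equal median, 1 SR or SR-like gene (SRSF5) was higher and 5 lower, and 10 hnRNPs were lower, with HNRNPC no longer among them (limma adjusted p = 0.0732), where 19.3% of genes were called higher and 22% lower.

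SRSF4, SRSF6, SRSF8, SRSF9, SRSF10, SRSF11, TRA2A, TRA2B, SRRM1, PTBP1, HNRNPDL, HNRNPH2, HNRNPL, HNRNPLL, HNRNPR, HNRNPU, HNRNPUL1 and HNRNPUL2 did not pass with all libraries, with log2 differences from -0.60 (HNRNPU) to 0.60 (HNRNPUL2). HNRNPUL2 was listed at 1.41 to 6.34 TPM in DMSO and 4.06 to 12.5 TPM with indisulam, while a row for its readthrough transcript HNRNPUL2-BSCL2 held 80.8 to 83.05 TPM and 53.1 to 78.3 TPM. The MM1S knockdown table gives HNRNPUL2 itself 30.1 to 42.5 TPM. How reads were divided between these rows was not tested. SRSF12, a repressor form of SR protein, stayed at 0.01 to 0.53 TPM in MM1S and at most 0.0255 FPKM in H929 and was not tested in any comparison.

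Few members passed after knockdown in MM1S, as few genes did in all. Of 15 SR and SR-like genes, 1 rose (TRA2A) and none fell, and of 21 hnRNPs, 2 fell (HNRNPA1 and HNRNPC) and none rose, with 3.97% of 14152 genes called higher and 6.35% lower by limma. The median log2 difference was -0.24 for hnRNPs and -0.09 for SR and SR-like genes, against -0.00 for all genes. Values of 12 hnRNPs and 6 SR and SR-like genes were lower in both shRBM39 libraries than in either scramble library, where this held for 31.9% of genes. None of the 3 calls was kept in any of the 4 fits that left out a library, each of which has 1 library in a group, taken to vary like the other group.

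HNRNPC was 423 and 466 TPM in scramble and 287 and 241 TPM with shRBM39, or -0.75 on the log2 scale (SE 0.135, limma adjusted p = 0.0347). HNRNPA1 was 1499.7 and 1557 TPM in scramble and 1153 and 1128 TPM with shRBM39 (-0.42, SE 0.0917, limma adjusted p = 0.0494). Both were thus lower in every knockdown library, and both were also lower with indisulam. They are the only members called in the same direction in both MM1S experiments, which used separate control libraries, and each loses 1 of its 2 calls under another scaling. After quantile normalization HNRNPC with indisulam was at -0.060 (limma adjusted p = 0.539) and HNRNPA1 in the knockdown at -0.26 (limma adjusted p = 0.124); after median scaling their limma adjusted p were 0.0732 and 0.0608. Of 12613 genes tested in both, 3.77% were called lower in both. TRA2A, an SR-like partner of TRA2B that favours exon inclusion, was 77.5 and 78.0 TPM in scramble and 118 and 129 TPM with shRBM39 (0.66, SE 0.121, limma adjusted p = 0.0360).

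SRSF4, an SR gene with a long arginine- and serine-rich tail, was 68.8 and 70.8 TPM in scramble and 113 and 98.7 TPM with shRBM39. Its libraries did not overlap, and its difference of 0.59 lay just over the threshold (SE 0.130, limma adjusted p = 0.0502). HNRNPAB was 153 and 183 TPM in scramble and 127 and 87.2 TPM with shRBM39 (-0.66, SE 0.214, limma adjusted p = 0.106). HNRNPAB therefore did not pass here, although both knockdown libraries were below both scramble libraries. SRSF3, SRSF5 and SRSF7 overlapped between the groups: SRSF3, for example, was 161 and 201 TPM in scramble and 204 and 147 TPM with shRBM39. The MM1S plots by library show the same genes in both experiments.

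**Figure D2:**
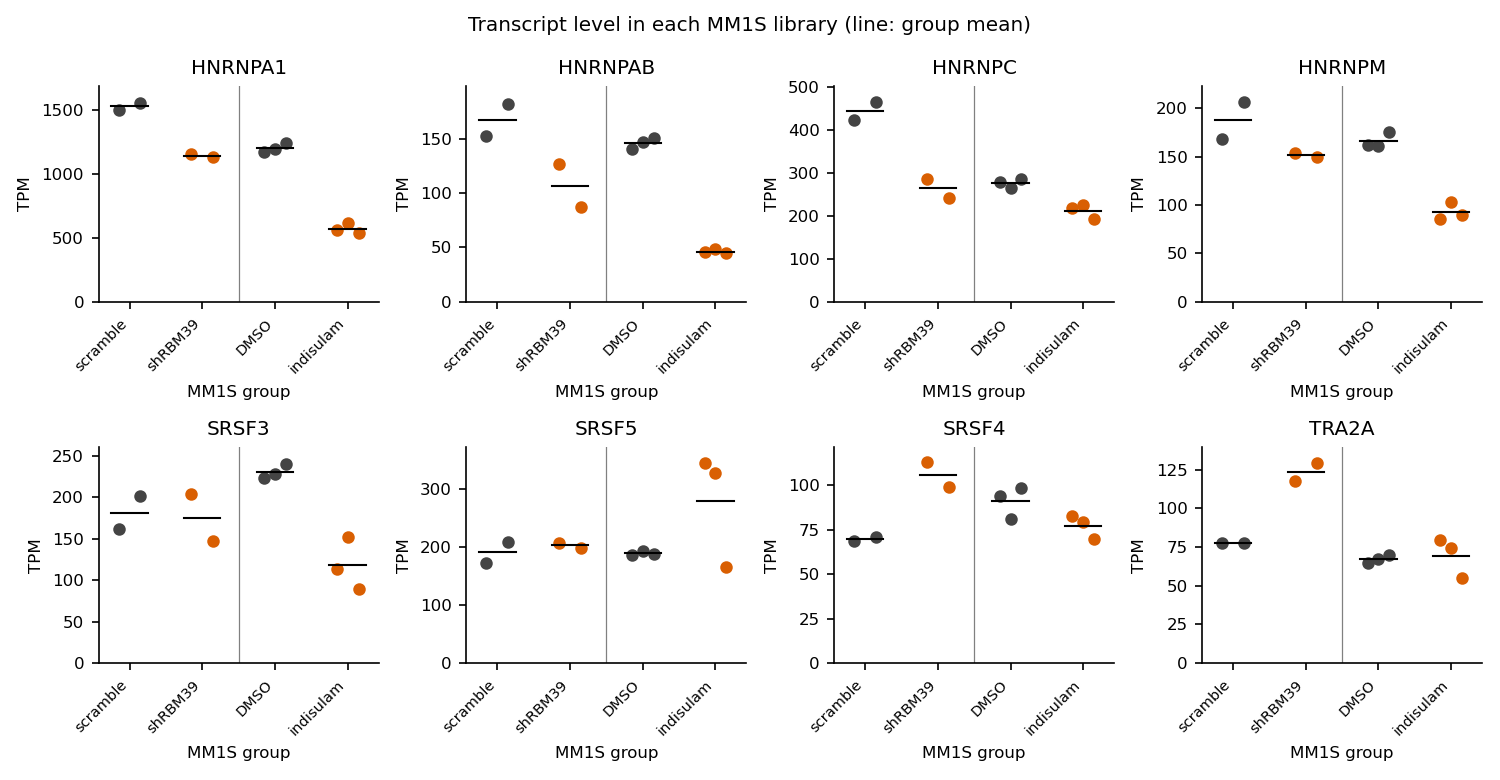
TPM of 8 members in each MM1S library (points), by group on the horizontal axis, with a line at each group mean and a vertical rule between the separately normalized experiments. HNRNPA1 and HNRNPC are lower in every knockdown and indisulam library than in their own controls, and SRSF5 with indisulam has 2 libraries high and 1 low.

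In H929 the libraries labelled shRBM39 had higher levels of most tested SR genes and of several hnRNPs, in an experiment where most genes of any kind were called one way or the other. Of 15 SR and SR-like genes, 8 were higher and 2 lower, and of 20 hnRNPs, 10 were higher and 4 lower, where limma called 24.1% of 10360 genes higher and 48.1% lower. The median log2 difference was 0.20 for SR and SR-like genes and 0.08 for hnRNPs, against -0.13 for all genes. All of these calls but HNRNPH1 had groups that did not overlap, as had 25.1% of all genes with higher and 49.6% with lower values. Scaling each library to an equal median moved the median of all genes to 0.03, and 12 SR and SR-like genes were then higher and 1 lower, and 13 hnRNPs higher and none lower, with 38% of genes called higher and 32% lower. The columns summed to 374511.5 to 374807 FPKM in scramble and to 409101.6 to 428099.3 FPKM in the libraries labelled shRBM39. No fit scaled the libraries to equal sums, and the part of this difference in the smaller rises was not tested. Leaving out libraries kept 23 of the 24 calls in all 6 fits, with HNRNPH1 the exception.

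PTBP1, the polypyrimidine tract-binding protein that represses many exons, was 68.9, 71.8 and 69.7 FPKM in scramble and 113, 111 and 111 FPKM in the libraries labelled shRBM39. The groups were far apart relative to their spread, and the fitted log2 change was 0.66 (SE 0.0388, limma adjusted p = 8.03e-09). HNRNPA1 was 168, 171 and 171 FPKM in scramble and 259, 274 and 255 FPKM in the libraries labelled shRBM39 (0.62, SE 0.0399, limma adjusted p = 1.83e-08). HNRNPD was 52.3, 49.8 and 53.1 FPKM against 73.8, 77.5 and 71.3 FPKM (0.51, SE 0.0459, limma adjusted p = 4.02e-07). For both hnRNPs every library labelled shRBM39 was above every scramble library.

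Among SR and SR-like genes the smallest p-values were those of SRSF7 and TRA2B. SRSF7 was 52.6, 54.4 and 49.9 FPKM in scramble and 72.3, 70.8 and 67.0 FPKM in the libraries labelled shRBM39 (0.42, SE 0.0473, limma adjusted p = 3.90e-06). TRA2B, which promotes inclusion at purine-rich enhancers, was 28.7, 29.3 and 27.5 FPKM against 39.6, 37.5 and 37.7 FPKM (0.41, SE 0.0473, limma adjusted p = 4.30e-06). Their groups did not overlap. HNRNPF was 38.4, 39.4 and 40.2 FPKM against 52.5, 49.4 and 52.8 FPKM (0.38, SE 0.0451, limma adjusted p = 5.30e-06).

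Lower values in the libraries labelled shRBM39 were called for 6 members, none by more than HNRNPDL. SRSF4 was 55.2, 54.5 and 57.1 FPKM in scramble and 46.3, 46.1 and 45.1 FPKM in the libraries labelled shRBM39 (-0.27, SE 0.0419, limma adjusted p = 6.09e-05). HNRNPDL, a relative of HNRNPD, was 32.8, 33.1 and 33.8 FPKM against 27.3, 29.0 and 25.2 FPKM (-0.28, SE 0.0541, limma adjusted p = 0.000381). The libraries of SRSF4 and HNRNPDL did not overlap between groups. HNRNPL, which binds CA repeats, was 158, 160.3 and 159.9 FPKM against 135, 142 and 141 FPKM (-0.19, SE 0.0381, limma adjusted p = 0.000557). SRRM1 (-0.20, 19.5 to 20.5 against 16.3 to 18.1 FPKM) and HNRNPUL1 (-0.13, 134 to 139 against 118 to 128 FPKM) had limma adjusted p of 0.00408 and 0.0124. HNRNPH1 was 109, 112 and 116 FPKM against 104, 109.8 and 91.8 FPKM (-0.14, limma adjusted p = 0.0445), and its groups overlapped. After median scaling SRSF4 alone among these 6 was still called lower, and HNRNPH1 and HNRNPUL1 had differences of 0.02 and 0.03.

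SRSF8, SRSF10, SRSF11, TRA2A, SRRM2, HNRNPA0, HNRNPA2B1, HNRNPA3, HNRNPLL, HNRNPU and HNRNPUL2 did not pass in H929, between -0.09 (SRSF8) and 0.13 (SRRM2). HNRNPH2 was listed at 0.0115 to 0.114 FPKM in H929 and was not tested there, whereas MM1S held 24.0 to 59.5 TPM of it. RPL36A, the ribosomal protein gene with which it shares a readthrough transcript, was at 0.0692 to 0.273 FPKM in the H929 table and at 2633 to 4095 TPM in the MM1S tables. Since a ribosomal protein gene is used by every cell, the low H929 values are given as listed and not as absence.

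**Figure D3:**
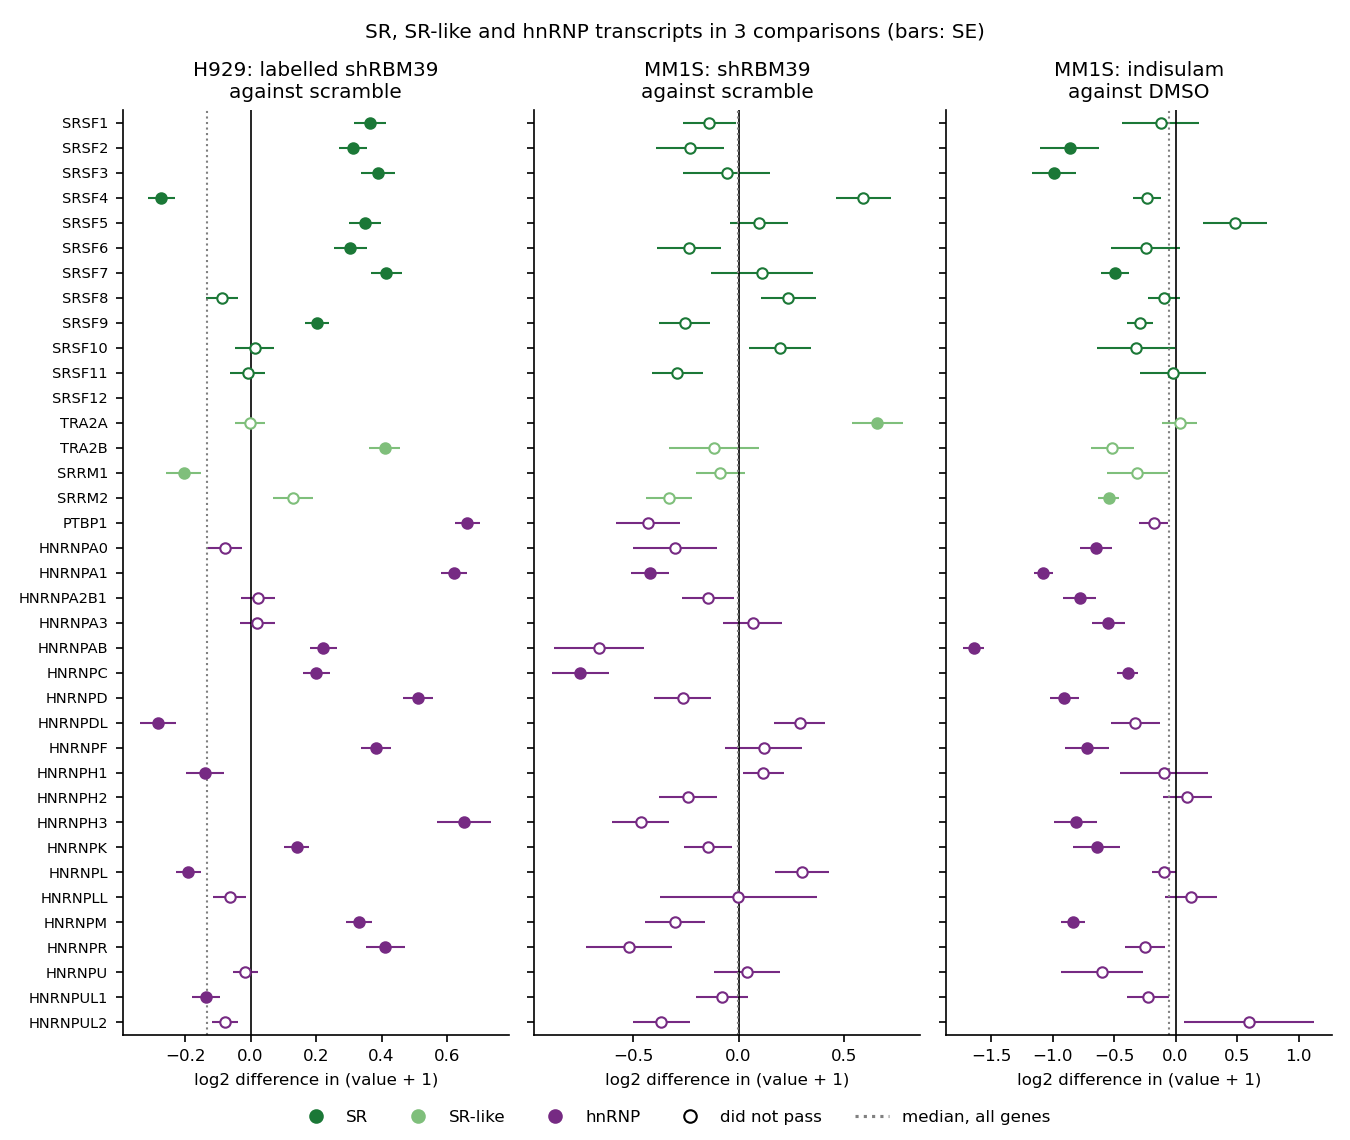
Log2 difference of each member in the 3 comparisons (horizontal axis, on log2(value + 1), bars are SE), with filled points for members that passed at a limma adjusted p below 0.05, open points for those that did not, a solid line at 0 and a dotted line at the median of all genes tested. The horizontal scales differ, and most filled points lie right of 0 in H929 and left of 0 with indisulam.

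Set side by side, 11 members were higher in the H929 libraries labelled shRBM39 and lower with indisulam in MM1S: SRSF2, SRSF3, SRSF7, HNRNPA1, HNRNPAB, HNRNPC, HNRNPD, HNRNPF, HNRNPH3, HNRNPK and HNRNPM. These are 31.4% of the 35 members tested in both, against 9.14% of the 9358 genes tested in both. Members were also called more often than all genes in each comparison alone, with 18 higher in H929 and 15 lower with indisulam. Over all genes, the overlap was 37.5% of those higher in H929 and 38.2% of those lower with indisulam. The H929 libraries labelled shRBM39 are also those with the higher RBM39 value. Those H929 values not yet given were, for SRSF2, 127, 123 and 123 FPKM in scramble and 159, 159 and 147 FPKM in the libraries labelled shRBM39 (log2 difference 0.31). SRSF3 was 38.3, 34.7 and 37.1 FPKM against 50.7, 48.2 and 46.0 FPKM (0.39). HNRNPAB was 102, 100.4 and 103 FPKM against 120.3, 123 and 114 FPKM (0.22). In each of these 3 the libraries labelled shRBM39 were all above scramble. HNRNPC was 62.8, 61.5 and 62.7 FPKM against 74.0, 72.0 and 69.5 FPKM (0.20). HNRNPH3 was 10.7, 10.9 and 12.6 FPKM against 20.0, 19.7 and 16.1 FPKM (0.65). HNRNPM was 83.1, 82.5 and 84.3 FPKM against 109, 105 and 102 FPKM (0.33). These 3 had the same arrangement, as had HNRNPK, whose 169, 162 and 169 FPKM in scramble stood against 189, 182 and 180.4 FPKM (0.14). HNRNPA1 and HNRNPC were also lower in the MM1S knockdown. No member was lower in H929 and higher in the MM1S knockdown among those that passed. SRSF8, SRSF10, SRSF11, SRSF12, HNRNPH2, HNRNPLL, HNRNPU and HNRNPUL2 were called in no comparison. Values of different tables were normalized separately, and no difference between comparisons was tested.

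Summed over each class, transcripts of both classes were lower in all indisulam libraries, and the ratio of SR to hnRNP sums was higher; no test was made of the sums. The hnRNP sum was 5054, 4951 and 5326 TPM in DMSO and 3610.0, 3689 and 2621 TPM with indisulam, and the groups did not overlap. The sum of SR and SR-like genes was 2028, 2020.3 and 2144 TPM in DMSO and 1822, 1909.7 and 1201 TPM with indisulam, again without overlap and with replicate 3 far below the rest. The SR to hnRNP ratio was 0.401, 0.408 and 0.403 in DMSO and 0.505, 0.518 and 0.458 with indisulam, higher in all treated libraries. After knockdown in MM1S the ratio was 0.326 and 0.318 in scramble and 0.363 and 0.345 with shRBM39. In H929 it was 0.476, 0.470 and 0.464 in scramble and 0.489, 0.484 and 0.490 in the libraries labelled shRBM39. The ratio was thus higher in the second group of each comparison as labelled. The RBM39 transcript was higher in that group in H929, against the label, lower in the MM1S knockdown and not called with indisulam. The part of RBM39 in the ratio was not tested. HNRNPA1 made up 23.2% to 24.2% of the hnRNP sum in DMSO, 15.5% to 20.6% with indisulam, and 13.9% to 14.5% against 10.2% to 10.4% in the H929 libraries labelled shRBM39 and scramble. With HNRNPA1 left out the ratio was 0.523 to 0.538 in DMSO and 0.577 to 0.621 with indisulam, 0.410 to 0.432 and 0.434 to 0.452 in the MM1S knockdown, and 0.517 to 0.530 and 0.566 to 0.571 in H929.

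**Figure D4:**
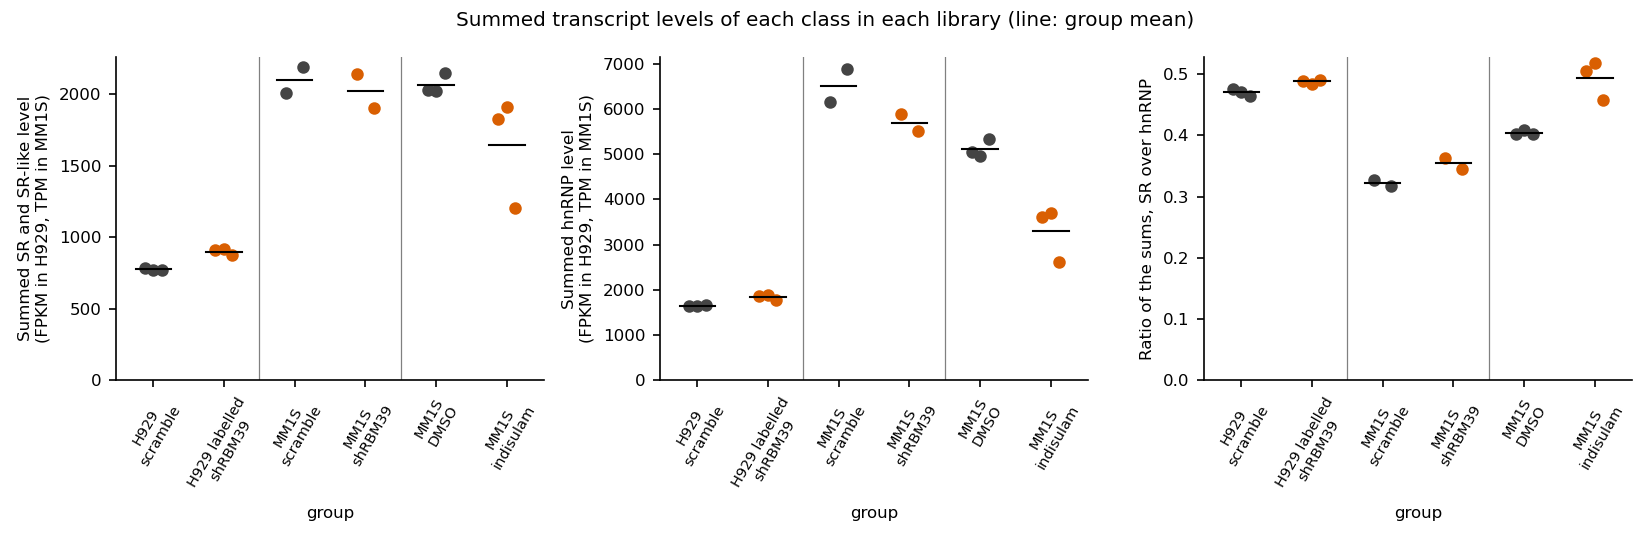
Summed level of the SR and SR-like genes (left), of the hnRNP genes (middle) and their ratio (right) in each library (points; lines are group means), in FPKM for H929 and TPM for MM1S, with rules between separately normalized tables. The hnRNP sums with indisulam, 2621 to 3689 TPM, lie below all DMSO libraries, and the ratio is higher in each second group.

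In the RIP, members of both classes lay on both sides of the IgG control. A log2 ratio of at least 1, from log2((RBM39 + 1)/(IgG + 1)) in FPKM, was found for 3 of 14 SR and SR-like genes and 5 of 21 hnRNPs, where 22.7% of 10966 genes reached it. A ratio of -1 or less was found for 5 SR and SR-like genes and 1 hnRNP, where 23.9% of genes did. Medians were -0.34 for SR and SR-like genes, -0.08 for hnRNPs and 0.02 for all genes. The columns summed to 481945 FPKM with the RBM39 antibody and to 653238.5 FPKM with IgG. The ratios were not scaled for this, and the counts past either cut depend on the scale. There is 1 library of each kind, so these ratios have no replicate check and no test.

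HNRNPAB had the highest ratio, at 514 FPKM with the RBM39 antibody and 107 FPKM with IgG (log2 ratio 2.25). HNRNPM followed at 365 and 105 FPKM (1.78), and HNRNPA0 at 85.7 and 28.3 FPKM (1.56). SRSF9 (118 and 43.4 FPKM, 1.43), HNRNPUL2 (39.3 and 14.3 FPKM, 1.39), SRSF4 (386 and 153 FPKM, 1.33), SRSF1 (307 and 131 FPKM, 1.22) and HNRNPA1 (1584 and 703 FPKM, 1.17) also passed a ratio of 1. At the other end, TRA2B was at 150.3 FPKM with the RBM39 antibody and 960.3 FPKM with IgG (-2.67), the highest IgG value of any member. HNRNPH3 was at 24.3 and 117 FPKM (-2.23) and SRSF11 at 77.8 and 221 FPKM (-1.49), followed by SRRM2 (-1.28), SRSF6 (-1.10) and SRSF10 (-1.07). All 4 SR-like genes had a ratio below 0. RBM39's own transcript was at 62.1 and 127 FPKM (-1.01).

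**Figure D5:**
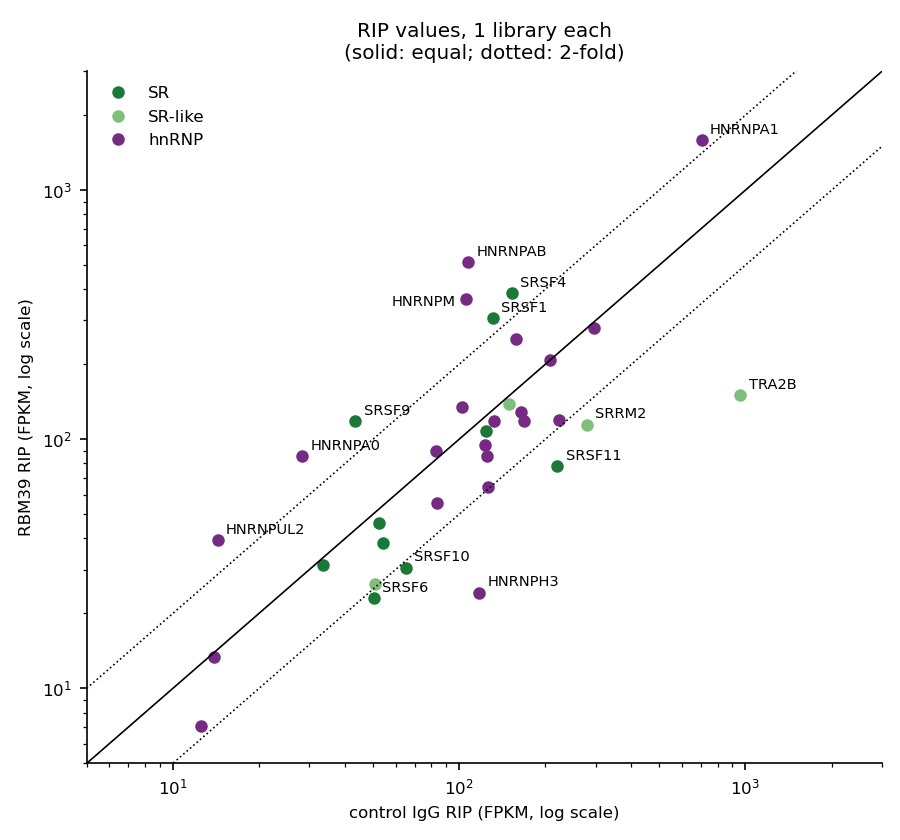
FPKM of each member in the RBM39 RIP library (vertical) against the IgG library (horizontal), both on log scales, with 1 library each; the solid line marks equal values and dotted lines a change of 2 times. HNRNPAB, HNRNPM and HNRNPA0 lie above the upper dotted line and TRA2B and HNRNPH3 furthest below the lower one.

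HNRNPA0, HNRNPA1, HNRNPAB and HNRNPM passed the RIP ratio of 1 and fell with indisulam, which is 50% of the 8 members past that ratio and 26.7% of the 15 that fell. Over the 9594 genes in both tables, those past both criteria were 22% of the genes past the ratio and 20.1% of those that fell; with 4 members, no difference between these shares is claimed. Across members, the RIP ratio and the log2 difference were weakly related in every comparison. With indisulam, Pearson's r was -0.17 over 35 members, -0.28 over 21 hnRNPs and 0.12 over 14 SR and SR-like genes. These are correlations across genes of the same libraries and are given as a description.

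Genes that act on these families were read from 3 lists. Of 13 SR protein kinases and import and export factors, 2 rose and 1 fell with indisulam, where 8.47% and 21.5% of all genes did. CLK1, a kinase that phosphorylates SR proteins and whose own transcript is regulated by splicing, was 102, 99.4 and 95.02 TPM in DMSO and 226, 204 and 138 TPM with indisulam (0.90, limma adjusted p = 0.00935). Its treated libraries were all above DMSO. CLK4 rose from 10.6 to 12.7 TPM to 15.4 to 33.4 TPM (1.04, limma adjusted p = 0.0296) and CLK2 fell from 84.3 to 90.8 TPM to 32.1 to 59.9 TPM (-0.88, limma adjusted p = 0.0239). After knockdown in MM1S, CLK1 (75.7 and 71.0 TPM against 126 and 124 TPM, 0.76), SRPK2 (31.5 and 27.9 TPM against 55.3 and 52.1 TPM, 0.84) and DYRK1B (1.34 and 0.67 TPM against 4.18 and 3.36 TPM, 1.27) rose and none of the 13 fell, where 3.97% and 6.35% of all genes did. None of these 3 calls was kept in any fit that left out a library. In the H929 libraries labelled shRBM39, 1 of the 13 was higher and 8 lower, where 24.1% and 48.1% of all genes were, with CLK1 at -0.69, CLK4 at -0.82 and SRPK2 at -0.51. List medians were 0.02 with indisulam, 0.19 in the MM1S knockdown and -0.35 in H929.

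Of 32 other regulators of exon choice, 2 rose and 7 fell with indisulam, shares near those of all genes, with a list median of 0.04. RALY, a relative of HNRNPC, was 304, 305 and 316 TPM against 170.4, 178 and 177 TPM (-0.81, limma adjusted p = 0.000386). RBM10 was 31.1, 31.3 and 33.7 TPM against 19.0, 20.2 and 16.6 TPM (-0.75, limma adjusted p = 0.00473). Knockdown in MM1S went with higher PCBP2 (1.15) and lower PTBP3 (-1.07) and TIAL1 (-0.56), with limma adjusted p of 0.0300, 0.0319 and 0.0452. PCBP2 was called in 1 of the 4 fits that left out a library, and PTBP3 and TIAL1 in none. In H929, 11 of 31 tested were higher and 11 lower, against 24.1% and 48.1% of all genes, with RBMX (0.60), PCBP1 (0.44) and PTBP2 (2.57 to 3.604 FPKM in scramble and 0.957 to 1.02 FPKM in the libraries labelled shRBM39) at the smallest adjusted p.

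Of 15 genes of nonsense-mediated decay and the exon junction complex, 1 rose and 4 fell with indisulam, again near the shares of all genes. The 4 that fell belong to the exon junction complex core, which splicing leaves on mRNA. EIF4A3 was 63.0, 61.2 and 67.4 TPM in DMSO and 25.1, 27.2 and 28.7 TPM with indisulam (-1.21, SE 0.105, limma adjusted p = 0.000398). MAGOH (-0.70), RBM8A (-0.70) and MAGOHB (-0.95) had limma adjusted p of 0.00182, 0.00259 and 0.0149, and CASC3, a further member of the complex, rose by 0.71 (limma adjusted p = 0.0458). After knockdown in MM1S, MAGOHB alone passed, at 19.0 and 26.2 TPM in scramble and 9.50 and 7.04 TPM with shRBM39 (-1.34, limma adjusted p = 0.0313), and was called in no fit that left out a library. In H929, 4 of the 15 were higher and 6 lower, against 24.1% and 48.1% of all genes, among them RBM8A at 0.53 and SMG5 at -0.53.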

How the data were processed

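RNA sequencing values of 16 libraries and RIP values of 2 were used as the authors deposited them. The members and gene lists were chosen with earlier results of these data known. The H929 and RIP tables hold FPKM made by the authors. Both MM1S tables are named FPKM, but the deposited values are TPM, since each column sums to 1000000 within 1; the planned test for FPKM was run on TPM. Per the labels, RNA came from TRIzol and libraries from a SMARTER mRNA kit; the aligner and counter are not named in the sources used here. The builds in the submitters' processing notes are GRCm38 and mm10, although the symbols are human, so the files give no coordinates here and promoters come from RefSeq alone. Of the columns, 0 were left unmatched. Counts were not used here, so no counting interval is given. Overlapping genes, readthrough rows and pseudogenes could share reads with members.

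Values were taken as log2(value + 1), and limma 3.58.1 (R 4.3.3, trend and robust variance) tested each comparison alone and two-sidedly. A gene entered with 1 or more in at least the smaller group's number of libraries, with Benjamini-Hochberg adjustment over all genes tested and calls below 0.05. Rows with a blank name, which hold 0.174% to 0.459% of TPM, were left out, and rows with a repeated symbol were kept apart. Up to 6 members per direction with the smallest adjusted p were named, with members called in both MM1S comparisons or in opposite directions, the 3 highest and 3 lowest RIP ratios, and up to 3 called genes per list. A called gene that this rule would name is not reported here. Members outside that rule, among them SRSF5, SRSF1 and HNRNPH1 with indisulam, were named after their values were seen. Libraries with the same number were not paired in the main fits, because the labels do not say that a number marks a pair. Their deviations correlated at 0.129, 0.000 and 0.025 in H929, -0.142 for MM1S shRBM39, and 0.137, -0.148 and -0.025 for indisulam. With so few libraries these values cannot settle whether numbers mark pairs. The processing was varied by leaving out each library, by scaling to equal medians or quantiles, by dropping the filter or setting it at 5, by adding 0.1 in place of 1, by fitting without trend and robust, by blocking on replicate number and by asking for a log2 change of 0.5 or more; a crossed block was added after seeing the data. Other tools were Python 3.11.15, pandas 2.3.3 and Matplotlib 3.10.9.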

Additional observations from a re-analysis of the deposited data

Results flagged for a closer look

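For 15 of the 35 members tested in both lines, every library moved one way between scramble and shRBM39 in H929 and the opposite way in MM1S. The RBM39 value itself also differs in opposite directions, and the difference between the lines was not tested. In H929 the log2 differences of the libraries labelled shRBM39 were 0.66 for PTBP1, 0.65 for HNRNPH3, 0.62 for HNRNPA1, 0.51 for HNRNPD, 0.41 for HNRNPR, 0.37 for SRSF1, 0.33 for HNRNPM, 0.31 for SRSF6, 0.22 for HNRNPAB, 0.20 for SRSF9, 0.20 for HNRNPC and 0.14 for HNRNPK. They were -0.28 for HNRNPDL, -0.27 for SRSF4 and -0.19 for HNRNPL. In the MM1S knockdown the same genes stood at -0.43 (PTBP1), -0.47 (HNRNPH3), -0.42 (HNRNPA1), -0.27 (HNRNPD), -0.52 (HNRNPR), -0.14 (SRSF1), -0.30 (HNRNPM), -0.23 (SRSF6), -0.66 (HNRNPAB), -0.26 (SRSF9), -0.75 (HNRNPC), -0.14 (HNRNPK), 0.29 (HNRNPDL), 0.59 (SRSF4) and 0.30 (HNRNPL). Of these, HNRNPA1 and HNRNPC passed the test in both lines, and the other 13 passed in H929 only. In the MM1S knockdown 30.5% of all genes had non-overlapping groups with higher values and 31.9% with lower values, so 2 against 2 libraries are often apart. In H929 these shares were 25.1% and 49.6%. The share of all genes that meet the rule in both lines was not counted, so the 15 members cannot be set against it.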

How the results depend on the processing

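In H929, 23 of 24 calls on members held in every fit that left out a library. With a log2 change of at least 0.5 required, 0 SR and SR-like genes were higher and 0 lower, and 4 hnRNPs were higher and 0 lower. The share of all genes that pass this cut was not counted. Quantile normalization left 1 SR or SR-like gene lower, as did median scaling, which left 0 hnRNPs lower. The SR and SR-like median was 0.17 with no filter, 0.19 after quantile normalization and 0.37 after median scaling, where the hnRNP median was 0.25; leaving out libraries gave 0.19 to 0.22 and 0.055 to 0.12. Of 35 members, 22 were above 0, against 31 after median scaling and 27 after quantile normalization. By median scaling the sign turned for SRSF11 (0.15), TRA2A (0.16), HNRNPH1 (0.024), HNRNPU (0.15), HNRNPUL1 (0.029), SRSF8 (0.076), HNRNPA0 (0.084), HNRNPLL (0.099) and HNRNPUL2 (0.085), and by quantile normalization for SRSF11 (0.14), TRA2A (0.13), SRSF8 (0.055), HNRNPA0 (0.072), HNRNPLL (0.071), HNRNPU (0.022) and HNRNPA2B1 (-0.028). Median scaling called 3932 genes higher and 3312 lower, and quantile normalization 3567 and 3620, against 2498 and 4979.

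In the MM1S knockdown, the 1 SR-like call became 0 with no filter, without trend and robust and with the replicate block, and 2 with a filter at 5, quantile normalization or median scaling. The 2 hnRNP calls became 0 with no filter, without trend and robust and with the replicate block, and 1 with a pseudocount of 0.1, quantile normalization, median scaling or a log2 change of at least 0.5. Leaving out a library gave 0 to 0 calls for both classes, medians of -0.21 to 0.10 and -0.34 to -0.13, and 0 to 98 genes higher and 0 to 367 lower among all. The SR and SR-like median was above 0 without scramble replicate 2 (0.10) and without shRBM39 replicate 2 (0.055). RBM39 itself did not pass with no filter or in 3 of these 4 fits. The hnRNP median was -0.11 after quantile normalization. The labels do not say whether replicate numbers pair the libraries (correlations are given with the processing). Over all genes, the block left 60 higher and 195 lower of 562 and 899, and no filter left 0 and 0. A filter at 5 called 675 genes higher and 1068 lower, quantile normalization 748 and 867, and median scaling 768 and 873. The fit without trend and robust called 403 and 662, and a pseudocount of 0.1 called 482 and 796. Genes past a log2 change of 0.5 were not counted. The crossed block, added after seeing the data, called 251 higher and 521 lower, with 0 SR and SR-like genes and 1 hnRNP among them.

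With indisulam, 7 of 15 calls held in every fit that left out a library. SR and SR-like genes called higher were 0 to 4 and lower 2 to 6 over those fits, and hnRNPs 0 to 3 and 5 to 12, with hnRNP medians of -0.63 to -0.32; the upper counts come without indisulam replicate 3 and the lowest without a DMSO library. Over these fits SRSF1 ranged from -0.35 to 0.28, SRSF11 from -0.21 to 0.33 and HNRNPH1 from -0.37 to 0.37, each turning sign and passing without replicate 3. Quantile normalization gave 2 SR and SR-like genes higher and 1 lower and medians of -0.067 for these and -0.22 for hnRNPs, and median scaling gave 1 SR gene higher. All genes called higher were 1139, but 670 with no filter, 693 with a filter at 5, 3026 after quantile normalization, 2593 after median scaling and 352 to 5391 over the fits that left out a library; 2885 were lower, and 1497 to 3959 over those fits. Lower calls over all genes were 2785 after quantile normalization and 2959 after median scaling. The replicate block gave 9 SR and SR-like genes higher in H929 and 10 hnRNPs lower with indisulam and left the other class counts there as they were. Over all genes the block called 2531 higher in H929 and 2217 lower with indisulam. RIP medians after median scaling were -0.21 for SR and SR-like genes and 0.044 for hnRNPs. Causes of these shifts were not tested.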
